A study of Mus musculus with 6 samples.

Results

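Inhba, Inhbb and Inha (the activin and inhibin subunits), Fst, Fstl1 and Fstl3 (follistatin and its relatives) and Acvr1b, Acvr2a and Acvr2b (activin receptors) were followed in the gonadal primordium epithelium of mouse fetuses lacking Emx2. These 9 genes of 18194 on the array were chosen by name, with earlier results of these data known. Every probe set whose annotated symbol was exactly one of theirs was taken. That gave 17 of 45101 probe sets, of which 14 were bright enough to be tested, and each of the 9 genes kept at least 1 of them. Emx2 is a homeobox gene needed for the urogenital system. The samples were 3 pools from fetuses labelled Emx2 KO and 3 wild-type (WT) pools, all at E10.5 (embryonic day). Each pool held cells of 3 fetuses, cut by laser microdissection from frozen sections of 30 µm after GATA4 staining of some sections had located the primordium. An aliquot of 15 ng of RNA per pool was amplified over 2 rounds and hybridised to 1 array. The Emx2 allele, the strain, the litters and the sex of the fetuses are not given in the sources used here, so p-values measure the spread between pools only.

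Activins are dimers of beta subunits (beta-A from Inhba, beta-B from Inhbb), and inhibins pair a beta subunit with the alpha subunit from Inha. Activins bind a type II receptor (Acvr2a or Acvr2b), which recruits and phosphorylates the type I receptor Acvr1b, and this kinase phosphorylates SMAD2 and SMAD3. Inhibins occupy type II receptors without passing the signal on, and follistatin traps activin outside the cell. In the gonad these proteins are known from granulosa and Sertoli cells and from the feedback on pituitary follicle-stimulating hormone.

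The 250 bases before the annotated start of Inhbb and of Inha are shown because these were the genes that passed the test. They come from RefSeq on assembly GRCm38.p6, are written 5′ to 3′ on the strand of the gene, and carry capitals where TAAT or AGGTCA was found.
Inhbb: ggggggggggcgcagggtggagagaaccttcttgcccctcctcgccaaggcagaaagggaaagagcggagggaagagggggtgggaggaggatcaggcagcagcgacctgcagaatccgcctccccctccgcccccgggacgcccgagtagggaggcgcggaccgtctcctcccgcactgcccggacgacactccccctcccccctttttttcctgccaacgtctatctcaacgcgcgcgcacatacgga
Inha: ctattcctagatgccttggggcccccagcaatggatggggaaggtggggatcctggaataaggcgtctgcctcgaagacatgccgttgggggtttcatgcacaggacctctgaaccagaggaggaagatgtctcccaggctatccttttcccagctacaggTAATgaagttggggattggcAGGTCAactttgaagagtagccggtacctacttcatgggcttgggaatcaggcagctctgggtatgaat
The Inhbb window is chr1:119422249-119422498 on the minus strand and holds 68% G and C. The Inha window is chr1:75507359-75507608 on the plus strand and holds 53.6% G and C. It ends just before a transcript start at 75507609, but the gene record opens at 75507077, so the window lies inside the record. Motifs were searched on both strands in windows of this length. Of 32851 promoters, 4.08% hold AAGGTCA, 4.84% hold TAATTA and 1.75% hold TGCGTCA. None of these motifs matched in the 8 genes with a window (0 matches); the table has no entry for Fst. A shorter form of the first, AGGTCA, was added after that and occurs in 14% of promoters. A shorter form of the second, TAAT, was added likewise and occurs in 54.9%. Both were found in the Inha window, AGGTCA at 69 and TAAT at 89 bases before the start, and neither in the Inhbb window. Genes that did not pass the test held them too: TAAT occurred 3 times in the Inhba window and AGGTCA in the Fstl3 window. These are letters, not sites of binding.

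Before the values, a few facts of the whole series matter. Deposited intensities were scaled to a common level, since the arrays' trimmed means differed by up to 1.47 times. Log2 intensities correlated across probe sets with r between 0.977 and 0.983 within a group, against 0.964 to 0.972 across groups. Of the genes that mark the primordium, Lhx9 averaged 6262 ± 553 in KO and 6156 ± 498 in WT pools and Wt1 2002 ± 308 in KO and 2620 ± 136 in WT pools (SD, n = 3 each). Gata4, whose protein was stained to locate the primordium, averaged 418 ± 10.8 in KO and 276 ± 60.7 in WT pools. All its KO pools lay above all its WT pools, and it narrowly missed the threshold (log2 fold change 0.62, limma adjusted p = 0.0501). Amh and Cyp11a1, also on the list of gonad genes, were too dim to test and do not show whether the primordium was captured. Amh lay at the floor in all 6 pools, and Cyp11a1 averaged 12.5 ± 3.51 in KO and 36.8 ± 9.91 in WT pools. The 1 Emx2 probe set read 1678, 1480 and 1746 in KO pools, against 1302, 2120 and 1727 in WT pools (log2 fold change −0.05, limma adjusted p = 0.916). Its place relative to the deleted part is not given, so it does not check the labels. Xist, the RNA of the inactive X, averaged 9512 ± 326 in KO and 34.6 ± 30.8 in WT pools, and Y-linked Eif2s3y 160 ± 63.1 and 776 ± 58.5 in KO and WT pools. Sex of the fetuses and genotype therefore cannot be told apart in these pools. The 9 genes lie on autosomes, namely chromosomes 1, 2, 9, 10, 13, 15 and 16. A place on an autosome does not separate sex from genotype, and an effect of sex on these genes was not tested.

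Of the subunits, beta-B and alpha fell in KO pools, while beta-A was dim and showed no call. The brighter Inhbb probe set (1426858_at) had scaled intensities of 17.5, 42.4 and 45.3 in KO pools, against 486, 620 and 335 in WT pools. Every KO pool lay far below the lowest WT pool. The means were 35.0 ± 15.3 in KO and 480 ± 142 in WT pools (SD, n = 3 each), and the log2 fold change was −3.85 (KO minus WT, SE 0.34, 95% interval −4.58 to −3.12, limma adjusted p = 4.9e-05). On the log scale that is 14.4-fold lower in KO pools. KO pool 1 lay under 26.4, the mean brightness below which probe sets were left out. The size of the fall thus rests on dim KO values (−3.29 with a pseudocount of 16, −3.41 without KO replicate 1). Reading each of 12315 tested genes by its brightest probe set, no other gene had a lower log2 fold change, and Inhbb ranked 15 by p.

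A second Inhbb probe set (1426859_at) was dimmer. It read 5.65, 41.1 and 31.7 in KO pools, against 52.7, 57.0 and 76.2 in WT pools. The groups did not overlap, but KO pool 1 lay at the intensity floor of 7.99. The KO mean of 26.1 was under 26.4, the brightness below which probe sets were left out. This probe set thus passed the filter only through its WT values. Its log2 fold change was −1.49 (SE 0.50, 95% interval −2.57 to −0.40) and did not pass (limma adjusted p = 0.129; −0.76 without KO replicate 1). Both probe sets had the same sign, with a smaller estimate from the dimmer one.

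Inha, which has 1 probe set (1422728_at), read 113, 121 and 128 in KO pools, against 401, 445 and 229 in WT pools. The KO pools lay close together below all WT pools, which were spread more widely. Means were 121 ± 7.43 in KO and 359 ± 114 in WT pools (SD, n = 3 each). The log2 fold change was −1.51 (SE 0.23, 95% interval −2.01 to −1.02, limma adjusted p = 0.00178), or 2.86-fold lower in KO pools. In Inha and the brighter Inhbb probe set, WT pool 2 was the highest WT pool and WT pool 3 the lowest, whereas in the dimmer Inhbb probe set WT pool 3 was the highest. The first order was not particular to these subunits. Of the gonad genes read below, Amhr2, Nr0b1 and Dmrt1 had it too, and Nr5a1 did not.

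For Inhba (1422053_at) the pools read 55.8, 9.77 and 27.0 in KO, against 29.9, 20.8 and 39.3 in WT. The ranges overlapped and lay around 26.4, the brightness under which probe sets were left out. The log2 fold change of −0.24 had an SE of 0.53, the largest of the tested members, and a 95% interval of −1.40 to 0.91 (limma adjusted p = 0.869). At this spread, a fall or a rise of any size inside that interval remained possible. The other Inhba probe set was at the floor in all 6 pools and gives no order.

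**Figure D1:**
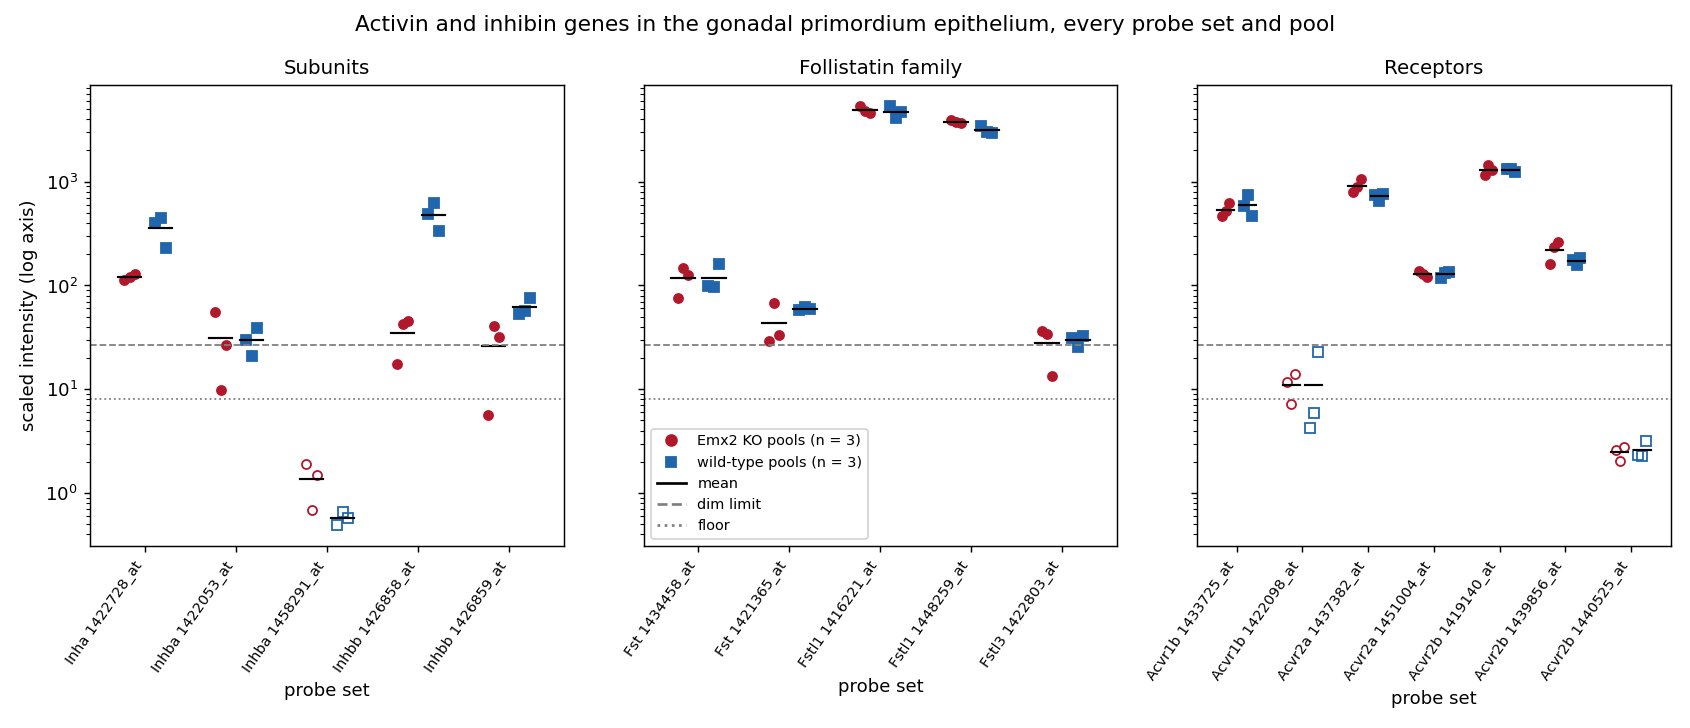
Scaled intensity on a log axis of each probe set of the 9 genes in each pool, KO left of WT; each point is 1 pool, each short line the group's mean, and open symbols mark probe sets too dim to test. A dashed line marks the dim limit (26.4) and a dotted line the floor (7.99). The brighter Inhbb probe set separates widely, at 17.5 to 45.3 in KO and 335 to 620 in WT pools, the dimmer one less, at 5.65 to 41.1 in KO and 52.7 to 76.2 in WT pools, and the receptors and Fstl1 lie close together.

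None of the antagonists passed the test. Fst, which encodes follistatin, averaged 117 ± 37.3 in KO and 118 ± 36.4 in WT pools at its brighter probe set (1434458_at; log2 fold change −0.03, SE 0.28, 95% interval −0.63 to 0.57, limma adjusted p = 0.971). Its other probe set (1421365_at) read 29.4, 67.9 and 33.1 in KO pools, against 57.9, 61.9 and 59.2 in WT pools. KO pools 1 and 3 were below the WT range and KO pool 2 above it (−0.56, SE 0.32, limma adjusted p = 0.415). Fstl3, a follistatin relative that also binds activin, had 36.1, 34.4 and 13.4 in KO pools, against 31.1, 25.5 and 32.8 in WT pools. Its groups overlapped near the dim limit (−0.21, SE 0.41, limma adjusted p = 0.849).

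Fstl1, a secreted glycoprotein with a follistatin-like domain, was bright. Its first probe set (1416221_at) averaged 4914 ± 361 in KO and 4728 ± 620 in WT pools (log2 fold change 0.06, SE 0.10, limma adjusted p = 0.819). Its second (1448259_at) read 3898, 3755 and 3661 in KO pools, against 3430, 2989 and 2955 in WT pools. All KO pools lay above all WT pools, by a log2 fold change of 0.27 (SE 0.09, 95% interval 0.09 to 0.46) that missed the threshold (limma adjusted p = 0.106). After quantile normalization it passed, at 0.30 (limma adjusted p = 0.048), so the call depends on the scaling.

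The receptors did not pass either. The brighter Acvr2a probe set (1437382_at) read 799, 895 and 1061 in KO pools, against 739, 657 and 767 in WT pools. Every KO pool lay above every WT pool. The log2 fold change was 0.34 (SE 0.13, 95% interval 0.06 to 0.62, limma adjusted p = 0.184). The dimmer one (1451004_at) averaged 130 ± 9.27 in KO and 128 ± 8.59 in WT pools (0.01, SE 0.18, limma adjusted p = 0.981), an estimate near 0. A further one, annotated to both Orc4 and Acvr2a, was not used.

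Acvr2b, the other type II receptor, gave 1164, 1450 and 1305 in KO pools, against 1330, 1331 and 1238 in WT pools (1419140_at). The groups overlapped, and the 95% interval of the log2 fold change, −0.23 to 0.24, is the narrowest around 0 among the receptors (0.00, SE 0.11, limma adjusted p = 0.995). A dimmer Acvr2b probe set (1439856_at) averaged 219 ± 51.8 in KO and 173 ± 14.6 in WT pools (0.32, SE 0.20, limma adjusted p = 0.463), and another was at the floor in all pools. Acvr1b, the type I receptor, read 464, 520 and 623 in KO pools, against 587, 751 and 467 in WT pools. These overlapped (1433725_at; −0.15, SE 0.17, 95% interval −0.53 to 0.23, limma adjusted p = 0.730). Its further probe set was too dim to test, at 11.7, 7.13 and 13.9 in KO pools and 4.27, 5.88 and 22.9 in WT pools.

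**Figure D2:**
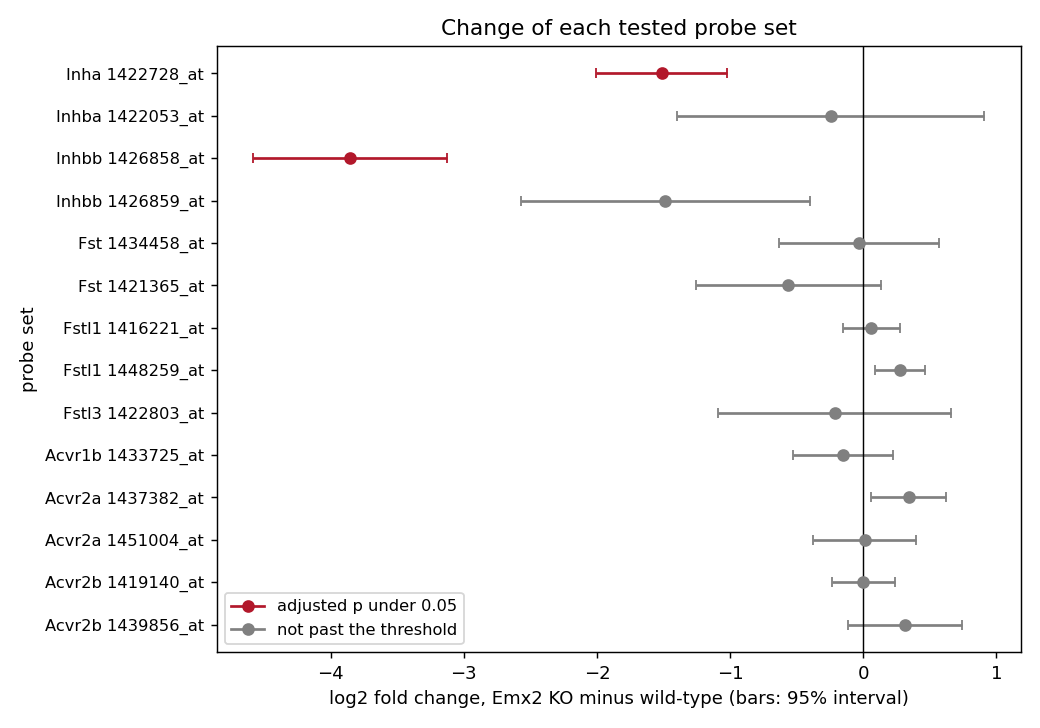
Log2 fold change (KO minus WT) of the 14 tested probe sets with 95% intervals from limma. Inhbb (1426858_at, −3.85) and Inha (−1.51) lie apart from 0, and most other intervals cross it.

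In counts, 0 of the 14 tested probe sets passed as higher and 2 as lower, where 2.75% of all 27022 tested probe sets passed as higher and 1.93% as lower. At an unadjusted limma p under 0.05 there were 2 higher and 3 lower, where 9.86% and 7.45% of all tested probe sets were. Groups did not overlap in 5 probe sets, 3 with KO lower and 2 with KO higher, beside 10% and 12% of all tested. In both counts the 3 lower ones include the dimmer Inhbb probe set, which passed the filter only through its WT values. By brightest probe set, 2 of the 9 genes passed as lower and 0 as higher, against 2.48% and 2.93% of 12315 genes. The 9 genes were chosen with earlier results of these data known, so these counts do not measure an excess. The median log2 fold change of the 14 was −0.09, and 0.01 over all tested probe sets.

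Other genes of the pathway were read from lists chosen for their known roles, 1 probe set per gene. These lists, too, were chosen with earlier results of these data known. Of 23 further ligands, co-receptors, receptors and processing enzymes, 21 were on the array and 12 were tested, with 1 higher and 0 lower. Of all tested genes, 2.93% passed as higher and 2.48% as lower. At an unadjusted limma p under 0.05 the counts were 2 and 0, where 9.02% of all tested genes were higher and 9.15% lower. The one that passed was Bambi, a decoy receptor that blocks type I receptors. It read 3056, 2664 and 2766 in KO pools, against 2187, 2080 and 2203 in WT pools. The groups did not overlap (log2 fold change 0.39, SE 0.09, limma adjusted p = 0.0247), but the call held in only 7 of 17 other settings and in 2 of 6 fits with 1 pool left out. Acvr1, a type I receptor of the BMP branch, averaged 1062 ± 72.3 in KO and 861 ± 102 in WT pools (0.31, limma adjusted p = 0.196). The untested ones include Inhbc, Inhbe, Gdf11 and Acvr1c, all dim in both groups.

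Of 18 genes that carry or limit the SMAD signal, 16 were tested, and 0 passed in either direction. At an unadjusted limma p under 0.05, 1 was higher and 0 lower. The shares over all tested genes were 2.93% higher and 2.48% lower, and 9.02% and 9.15% without adjustment. Smad3, a direct target of the activated type I receptor, read 1789, 1841 and 1775 in KO pools, against 1477, 1495 and 1481 in WT pools. The pools separated cleanly, but the log2 fold change of 0.28 (SE 0.09) missed the threshold (limma adjusted p = 0.113). It passed in 2 of 17 other settings, both with no filter on dim probe sets, and averaging all tested probe sets of a gene also gave 1 gene of this list as higher. Wwp1, a ubiquitin ligase, averaged 630 ± 5.67 in KO and 542 ± 12.2 in WT pools (0.22, limma adjusted p = 0.361). The list's median log2 fold change was −0.03.

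Of 13 genes listed as responding to activin or TGF-beta signals in other tissues, 10 were tested, 2 passed as higher and 0 as lower. At an unadjusted limma p under 0.05 the counts were 3 and 0. The 3 include Id3 (0.24, limma adjusted p = 0.159). Beside these counts stand 2.93% and 2.48% of all tested genes, and 9.02% and 9.15% without adjustment. Besides Bambi, Ccn2, a matricellular protein, read 454, 444 and 507 in KO pools, against 282, 279 and 343 in WT pools. All KO pools were higher (0.64, SE 0.14, limma adjusted p = 0.0206), a call that held in 8 of 17 other settings and 1 of 6 fits with 1 pool left out. The list's median was 0.00. Neither gene responds to activin alone.

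Among genes of the early gonad, 22 were listed, 18 were tested, 3 passed as higher and 6 as lower. Over all tested genes the shares were 2.93% and 2.48%. This list was also chosen with earlier results of these data known, so its counts do not measure an excess. Nr0b1, an orphan nuclear receptor that restrains Nr5a1, averaged 16.5 ± 6.96 in KO and 119 ± 27.9 in WT pools (log2 fold change −2.90, limma adjusted p = 0.000303). Dmrt1, a sex-determining transcription factor, averaged 22.5 ± 4.24 in KO and 109 ± 54.1 in WT pools (−2.18, limma adjusted p = 0.00256). The KO means of Nr0b1 and Dmrt1 lay under the dim limit of 26.4, so both passed the filter only through their WT values. Amhr2, a type II receptor of the same superfamily for anti-Müllerian hormone, read 1142, 1453 and 1527 in KO pools, against 4279, 5009 and 2735 in WT pools (−1.51, limma adjusted p = 0.000426). Its probe set is one that may cross-hybridise. Those that rose were Osr1, a regulator of intermediate mesoderm, Hsd3b1, a steroidogenic enzyme, and Tcf21, a transcription factor of the urogenital mesenchyme. Osr1 read 249, 341 and 413 in KO pools, against 117, 162 and 127 in WT pools, without overlap (1.29, limma adjusted p = 0.00295). Hsd3b1 averaged 112 ± 18.2 in KO and 57.8 ± 3.04 in WT pools (0.94, limma adjusted p = 0.0258). Tcf21 averaged 2170 ± 270 in KO and 1325 ± 121 in WT pools (0.71, limma adjusted p = 0.00325). Nr5a1, an orphan nuclear receptor on which gonad formation depends, read 802, 727 and 601 in KO pools, against 1419, 2060 and 1517 in WT pools. Nr5a1 fell as well (−1.22, limma adjusted p = 0.000492). With no filter on dim probe sets, 0 genes of this list passed.

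Markers of other cells moved with the groups as well. Their counts stand beside 2.93% of all tested genes that passed as higher and 2.48% as lower. Of 11 tested mesenchyme markers 6 rose, Twist1, Postn and Pdgfrb the most, and 0 fell, and their summed intensity was 19285 to 19994 in KO and 13345 to 15016 in WT pools. Of 7 endothelial markers 4 rose and 0 fell, with sums of 1485 to 1761 in KO and 883 to 1121 in WT pools; with 1 pool left out, 1 to 2 rose. Pecam1, a defining endothelial marker, lay at the floor in 3 KO and 2 WT pools. Of 4 nephric markers 0 rose and Lhx1 and Pax8 fell, with sums of 102 to 182 in KO and 276 to 291 in WT pools; with 1 pool left out, 0 to 3 fell (0 without WT replicate 1, 1 without WT replicate 2). Of 4 germ cell markers 0 rose and Dppa5a and Dppa3 fell, with sums of 738 to 969 in KO and 1181 to 1645 in WT pools; 1 fell without KO replicate 1 or 3 or WT replicate 1 or 2, and 0 fell with values as deposited, no filter or no trend. Of 11 coelomic epithelium markers 4 rose and 2 fell, and the sums overlapped at 22174 to 24387 in KO and 22997 to 24449 in WT pools; 1 fell without WT replicate 1. Blood markers (5, of which 0 passed), neural markers (5, with Dct lower) and hepatic markers (3, of which 0 passed) gave sums of 35419 to 36824, 203 to 392 and 158 to 426 in KO pools, against 35272 to 37023, 445 to 600 and 114 to 1949 in WT pools. The gap in the neural sums rests largely on Dct, at 258, 313 and 226 in WT pools. Of the other neural markers, Elavl3 and Elavl4 averaged higher in KO pools and Ngfr and Sox10 lower, none called. The KO means of Lhx1 (20.7) and Dct (23.8) lay under the dim limit of 26.4, so both passed the filter only through their WT values. Endothelial Emcn, counted as higher, had a WT mean under that limit (22.0) and passed through its KO values. The part of the marker lists in the falls of Inhbb and Inha was not tested. In these bulk samples fewer cells of a type and less RNA per cell cannot be told apart.

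The genes whose pattern over the 6 pools was most like that of Inhbb were sought among 22258 tested probe sets, by the root mean square difference of centred log2 values. Cfap161, a cilium-associated gene, was closest at 0.43, followed by Nr0b1 (0.57), the secreted synapse organiser Cbln1 (0.60), the cardiac myosin gene Myh6 (0.76) and the transcription factor gene Sp6 (0.77). The median over all 27022 tested probe sets, members included, was 2.01. Few of those probe sets passed the test, so that median does not show how unusual the likeness is. Cfap161 averaged 16.6 ± 3.94 in KO and 190 ± 49.7 in WT pools. The KO means of Cfap161 and Nr0b1 lay under the dim limit of 26.4. The likeness is a description over 6 arrays that all these genes share. Genes picked for likeness to Inhbb had to be low in KO pools, so their falls follow from the choice.

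**Figure D3:**
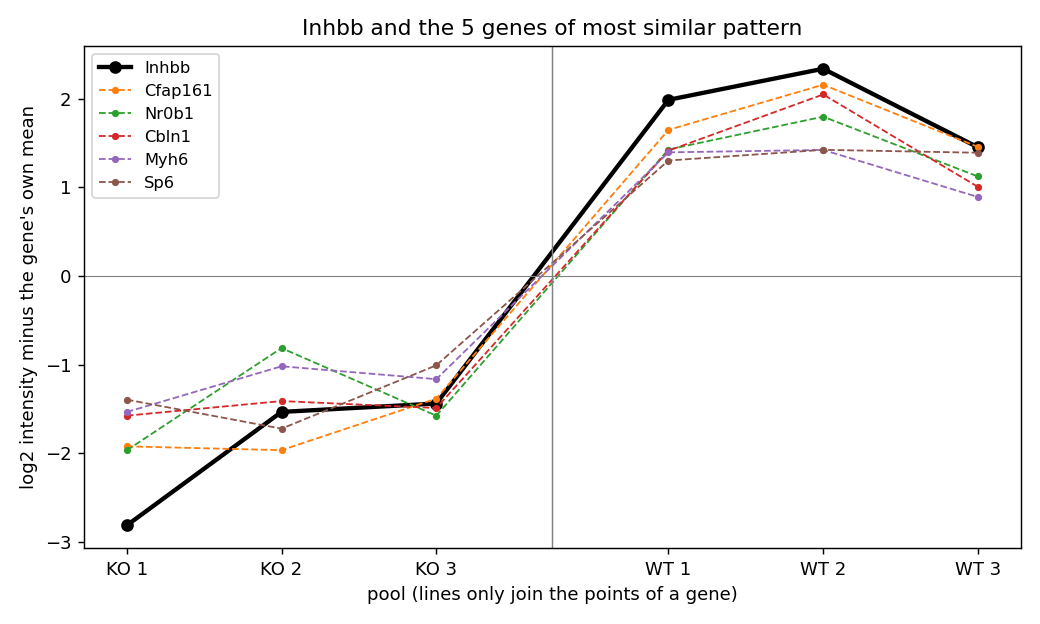
Log2 intensity of Inhbb and of the 5 genes most like it, each centred on its own mean, in the 3 KO and then the 3 WT pools; each line is 1 gene. All lines run low in the KO pools and high in the WT pools, which the choice by likeness to Inhbb fixed in advance.

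The 2 calls were recomputed under 17 other settings each. Inhbb gave log2 fold changes between −4.10 and −3.29 and Inha between −1.81 and −1.33. Each passed in 15 of the 17, including all 6 fits with 1 pool left out, with a limma adjusted p of at most 0.000773 for Inhbb and 0.0157 for Inha there. With no filter on dim probe sets neither passed (limma adjusted p = 0.073 for Inhbb and 0.139 for Inha).

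**Figure D4:**
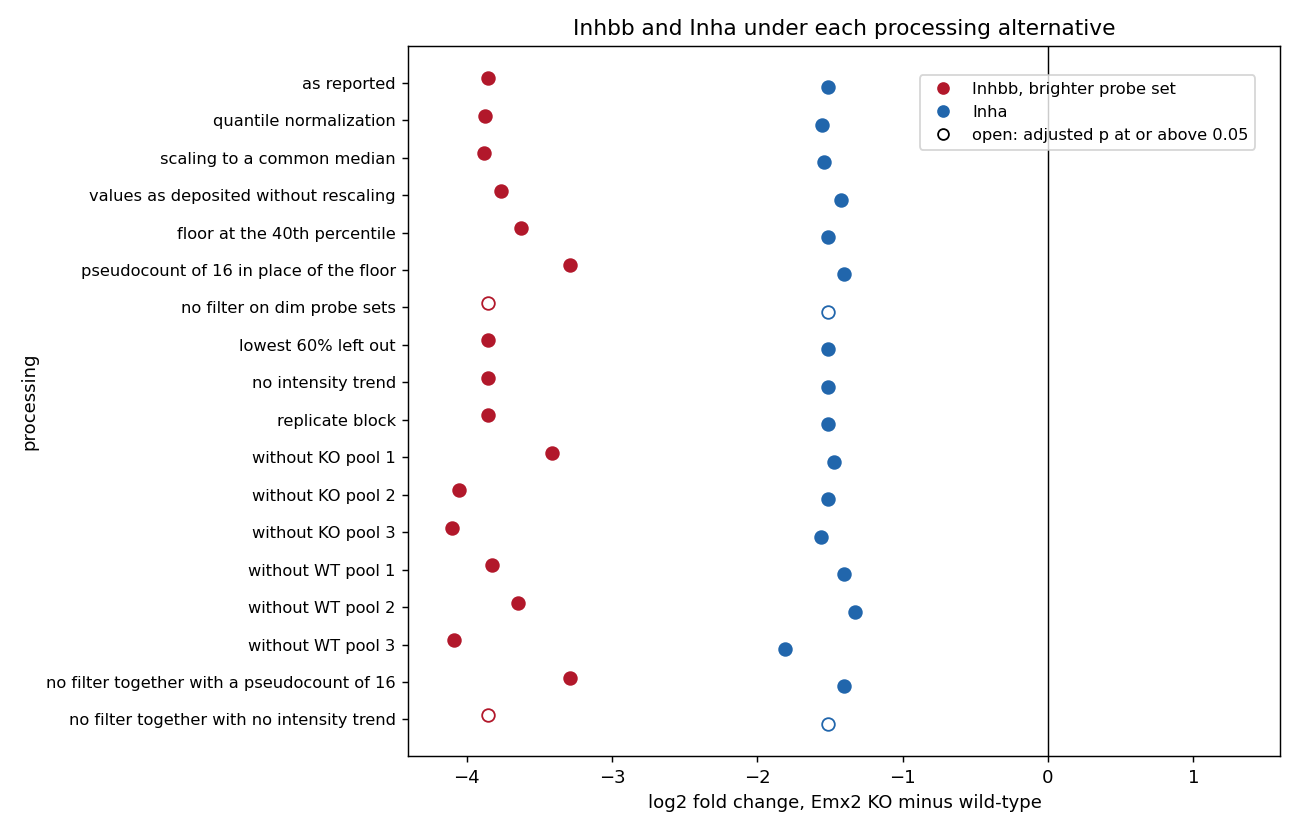
Log2 fold change (KO minus WT) of Inhbb and Inha as reported and under each other setting; filled points passed limma at an adjusted p under 0.05 and open points did not. Both stay negative throughout, with Inhbb between −4.10 and −3.29.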

How the data were processed

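The values are intensities the authors deposited, 1 linear number for each of 45101 probe sets on 6 arrays. Software: GCOS 1.2, per the submitters' processing notes; its algorithm and scaling are not given in the sources used here. Names came from the platform annotation (34958 with 1 symbol, 932 with several, 9211 with none).

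Each array was scaled to a common 2% trimmed mean (309.2), values under the 20th percentile were raised to it (7.99), and logs to base 2 followed. Left out were 64 control probe sets and the 40% with the lowest mean log2 (under 4.72, an intensity of 26.4), leaving 27022. The KO to WT comparison used limma 3.58.1 under R 4.3.3 (lmFit, eBayes with an intensity trend), two-sided, Benjamini-Hochberg over all tested probe sets, threshold 0.05. The procedure was tested on simulated data. The number of arrays limits the precision. Amplification over 2 rounds can dim probe sets far from the 3' end.

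A list's gene is read by its brightest probe set. Named were every member probe set, Emx2, Nr5a1, Xist, Eif2s3y, the 5 patterns most like Inhbb, and from each list up to 3 called genes by size, filled to 2 by p. Lhx9, Wt1, Gata4, Amh, Cyp11a1, Hsd3b1, Osr1, Tcf21, Id3, Pecam1 and the untested pathway genes were named after their values were seen. Not every marker the rule takes is printed. The members and lists were chosen with earlier results of these data known. Same-numbered pools did not deviate together (correlations −0.07, 0.04 and −0.05), so numbers do not pair the pools.

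Alternatives changed the scaling, floor, filter, trend, replicate block, pools and probe set choice; the closing section gives those that moved a main result. 2 were added after seeing the data: no filter with a pseudocount of 16 or with no trend.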

Additional observations from a re-analysis of the deposited data

How the results depend on the processing

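The direction of Inhbb and Inha was negative in all settings run. With no filter on dim probe sets, 151 probe sets passed (107 higher, 44 lower), with 0 of the member probe sets lower, and Inhbb had a limma adjusted p of 0.073. With no filter and no trend the counts were 151, 107 and 44, again with 0 members lower, and Inhbb had an adjusted p of 0.0804. With no filter and a pseudocount of 16 they were 751, 443 and 308, and with no trend 541, 317 and 224. Values as deposited gave 267 lower. The cause was not tested. Quantile normalization called 1 member probe set higher (Fstl1), and unscaled values passed the second Inhbb probe set (−1.47, adjusted p = 0.0247). Common-median scaling, the floor at the 40th percentile, the pseudocount alone and leaving out the lowest 60% gave 1163 to 1355 called probe sets, with 2 members lower and 0 higher each time; under common-median scaling Bambi was not called. An exact permutation test gave p = 0.1 for Inhbb, the smallest that 3 against 3 pools allow. With 1 pool left out, 721 to 1682 probe sets passed (441 to 890 higher, 271 to 792 lower), the fewest without WT replicate 1, and 0 members were higher and 2 lower each time. With the replicate number as a block, which pairs no pools here, 1160 passed (682 higher, 478 lower), Inhbb gave −3.85 (adjusted p = 8.56e-05), Inha passed at an adjusted p of 0.00307, and 2 members were lower. Depth cannot be judged from intensities. Inhba, Fstl3 and the dimmer Inhbb probe set lie near the background limit, as does the brighter Inhbb probe set in KO pools.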
